A study of Mus musculus with 12 samples.

Results

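The genes described are 10 genes of the transforming growth factor beta (TGF-beta) pathway, and they were found in the deposited count table by their mouse gene symbols. All 10 were present among 55487 gene identifiers, and all 10 were among the 15897 genes that passed the filter on low counts. They are the ligand gene Tgfb1, the receptor genes Tgfbr1, Tgfbr2 and Tgfbr3, the signal transducers Smad2 and Smad3, and the inhibitors Smad7, Ski, Skil and Ldlrad4. Their identifiers in the table are ENSMUSG00000002603 for Tgfb1, ENSMUSG00000007613, ENSMUSG00000032440 and ENSMUSG00000029287 for the receptors in the order named, ENSMUSG00000024563 and ENSMUSG00000032402 for Smad2 and Smad3, and ENSMUSG00000025880, ENSMUSG00000029050, ENSMUSG00000027660 and ENSMUSG00000024544 for the inhibitors. Bulk RNA sequencing had been done on CD8+ T cells from splenocytes of C57BL/6 mice. The cells were kept with 1 of 4 treatments, and each treatment has 3 libraries. The cytokine was IL-2 or IL-12, and either was given alone or together with 80%TCM. The labels do not spell out TCM, and the series title places the study under tumor-like conditions. They give no age, sex, dose or culture time, and leave it unsaid if the 3 libraries of a treatment came from separate mice or cultures. The p-values therefore measure only the spread between these libraries, which may be technical.

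TGF-beta is secreted in a latent form and, once released, binds the type II receptor (Tgfbr2), which recruits and activates the type I receptor (Tgfbr1). The type I receptor phosphorylates SMAD2 and SMAD3, which join SMAD4 and act on genes in the nucleus. SMAD7 blocks the receptor, SKI and SKIL (SnoN) are co-repressors that hold SMAD complexes inactive, and LDLRAD4 keeps SMAD2 and SMAD3 from being recruited to the receptor. In CD8+ T cells the pathway is known to restrain killing and proliferation and to induce the integrin CD103, which is encoded by Itgae.

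Libraries held between 19500568 and 26007717 counts, except replicates 1 and 2 of IL-12, which held 49638920 and 42349121. Levels are given in CPM, the count of a gene scaled to a common library total, with TMM-scaled library sizes. The lowest count of any of the 10 genes in a library was 112, for Ldlrad4. All 8 CD8+ T cell markers checked had a mean above 1 CPM in every group, with summed levels from 4530 to 5560 CPM. Of 4 NK cell markers and 7 neutrophil markers, the summed level stayed at or under 3.43 and 1.02 CPM in every library. The third replicates of both IL-2 groups, without and with TCM, were unlike the others: 14 glycolysis and low-oxygen genes summed to 16700 and 18000 CPM there, against 5350 to 5730 CPM in replicates 1 and 2 of the same groups and 7910 to 10900 CPM in the IL-12 libraries. Counts of calls for the 10 genes and for the pathway lists, with some single values, are also given from a fit of the other 10 libraries. It is called the 10-library fit below, and its IL-2 groups hold only replicates 1 and 2 (n = 2 each). These differed less from each other than from replicate 3. The chi-square of their counts per degree of freedom was 2.4 against 28.8 and 28.5 in IL-2, and 4.32 against 40.4 and 45.4 with TCM. Calls that this fit adds rest on that smaller spread.

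RefSeq start regions (build GRCm38.p6) were looked up for 5 of the 10 genes, and 3 are shown here because they belong to signalling genes that parted ways below: Tgfbr1 fell from IL-2 to IL-12, Smad3 rose, and Tgfbr2 was not called. Each is the 250 bases before the start of transcription, with capitals on the letters of the GC box of SP1 (GGGCGG) and of the SMAD-binding core (CAGAC), searched on both strands.
Tgfbr1, chr4:47352972-47353221, plus strand: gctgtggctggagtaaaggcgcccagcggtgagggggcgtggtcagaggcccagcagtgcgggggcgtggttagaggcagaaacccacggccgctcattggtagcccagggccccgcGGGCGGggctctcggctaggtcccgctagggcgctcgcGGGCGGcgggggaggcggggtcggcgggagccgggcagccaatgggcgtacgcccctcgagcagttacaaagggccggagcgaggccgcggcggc
Tgfbr2, chr9:116175364-116175613, minus strand: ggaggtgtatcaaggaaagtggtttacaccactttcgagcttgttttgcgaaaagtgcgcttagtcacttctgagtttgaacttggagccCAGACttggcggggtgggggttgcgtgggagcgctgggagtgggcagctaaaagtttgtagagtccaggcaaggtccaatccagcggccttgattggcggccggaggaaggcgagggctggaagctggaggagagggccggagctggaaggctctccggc
Smad3, chr9:63757995-63758244, minus strand: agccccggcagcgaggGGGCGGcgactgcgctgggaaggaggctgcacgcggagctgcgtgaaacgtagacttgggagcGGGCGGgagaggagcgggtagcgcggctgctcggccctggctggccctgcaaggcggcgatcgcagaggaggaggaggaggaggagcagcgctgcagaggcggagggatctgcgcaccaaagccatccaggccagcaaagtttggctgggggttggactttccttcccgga
The Tgfbr1 and Smad3 regions hold 2 GC boxes each and no CAGAC. The Tgfbr2 region holds no GC box and 1 CAGAC, which ends 155 bases before the start. GGGCGG occurs in 32.7% and CAGAC in 42.2% of 32851 start regions of this length. The STAT motif TTCNNNGAA occurs in 7.02% of them and in none of the 3 shown. GC content was 74.8%, 58.4% and 69.2% for Tgfbr1, Tgfbr2 and Smad3, beside a median of 52.4% over all regions.

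Levels of different genes were compared per kilobase of exon, with exon lengths from GENCODE M21. In IL-2 the ligand gene Tgfb1 was the most abundant of the 10, at 30.9 ± 2.0 CPM per kb (SD, n = 3), and Ldlrad4 the least, at 3.76 ± 0.81 CPM per kb. These ends of the order were the same in all 4 groups, although Tgfb1 and Tgfbr2 overlapped in IL-12. The place of Ldlrad4 is uncertain, since 52.1% of its exon length lies opposite exons of Fam210a and the strand setting of the counts is not stated. Ski and Tgfbr2 followed Tgfb1 in IL-2, at 24.1 ± 0.59 and 23.7 ± 0.89 CPM per kb, and their ranges overlapped. Skil and Smad7 came next at 13.9 ± 0.50 and 12.2 ± 0.75 CPM per kb, with no overlap. Tgfbr1, Smad3, Tgfbr3 and Smad2 lay between 5.56 and 6.99 CPM per kb, and each overlapped its neighbour in this order. The order of the signalling genes differed in the other groups. Smad3 lay at 11.3 ± 0.43 CPM per kb in IL-12 and Tgfbr1 at 3.85 ± 0.22 CPM per kb, so that Smad3 stood above Tgfbr1 with no overlap. The same held in IL-2 with 80%TCM, at 7.8 ± 0.89 against 4.91 ± 0.24 CPM per kb. It also held in IL-12 with 80%TCM, at 10.8 ± 0.4 against 2.80 ± 0.15 CPM per kb. In every group the type II receptor Tgfbr2 was above the type I receptor Tgfbr1, in IL-12 with 80%TCM at 21.2 ± 0.93 against 2.80 ± 0.15 CPM per kb.

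**Figure D1:**
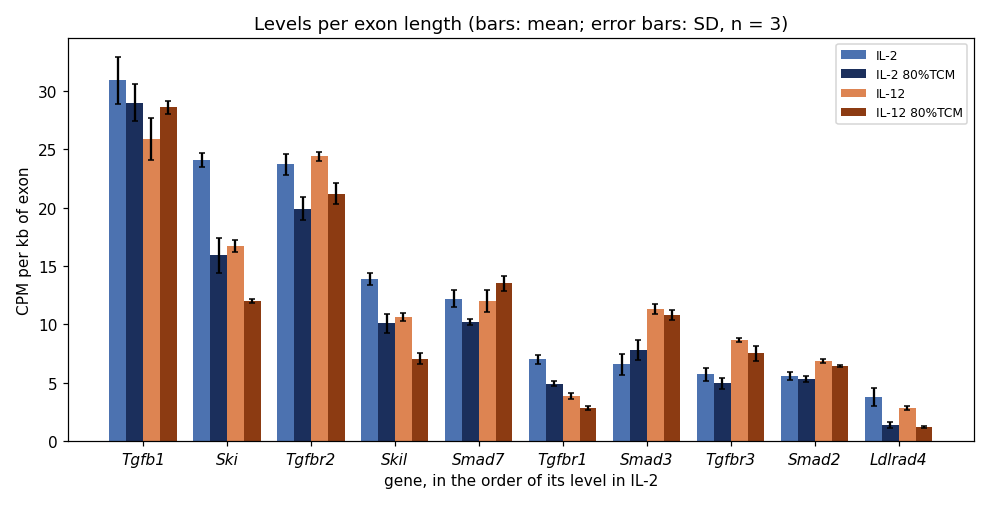
Mean level per kilobase of exon (vertical axis, CPM per kb, from 0) of the 10 genes (horizontal axis, in the order of their level in IL-2) in the 4 groups, with SD over 3 libraries as error bars. Tgfb1 is highest and Ldlrad4 lowest in each group, and Smad3 stands at 11.3 in IL-12 against 6.57 in IL-2. The place of Ldlrad4 is uncertain, since its exons overlap those of Fam210a.

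The first question was how TCM changed these genes within each cytokine. TCM lowered the 3 inhibitors Ski, Skil and Ldlrad4 and both signalling receptors, Tgfbr1 and Tgfbr2, in IL-2 as well as in IL-12. Within IL-2, 6 of the 10 genes fell and 0 rose (edgeR quasi-likelihood test, adjusted p under 0.05 over all genes tested), where 7.82% of all tested genes fell and 6.73% rose (14.5% in all). The 6 that fell had no overlap between groups, which held for 27.4% of all tested genes. At an unadjusted p under 0.05, 7 were lower and 1 higher, in DESeq2 as in edgeR. The share of all tested genes at an unadjusted p was not computed, here or below. The called shares are for adjusted p only. Within IL-12, 5 fell and 0 rose, beside 14.2% and 14.8% of all tested genes (29.0% in all). Groups did not overlap for 9 of the 10 genes there, and for 52.1% of all tested genes. Unadjusted, 6 were lower and 2 higher there (6 and 1 in DESeq2). The median log2 fold change of the 10 genes was -0.26 in IL-2 and -0.20 in IL-12, beside 0.00 and 0.01 over all tested genes. The 2 comparisons share no library, and the 5 genes that fell in both were Tgfbr1, Tgfbr2, Ski, Skil and Ldlrad4. Of all tested genes, 4.88% fell in both and 4.59% rose in both. In the 10-library fit, all 10 genes were called within IL-2, 9 lower and 1 higher, where 12.4% and 12.3% of all genes tested were called (24.7% in all). That fit also called 6 lower and 2 higher within IL-12, beside 22.9% and 23.1% of all genes (46.0% in all). All groups of a fit share an estimate of spread, and the cause of the added calls was not tested.

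**Figure D2:**
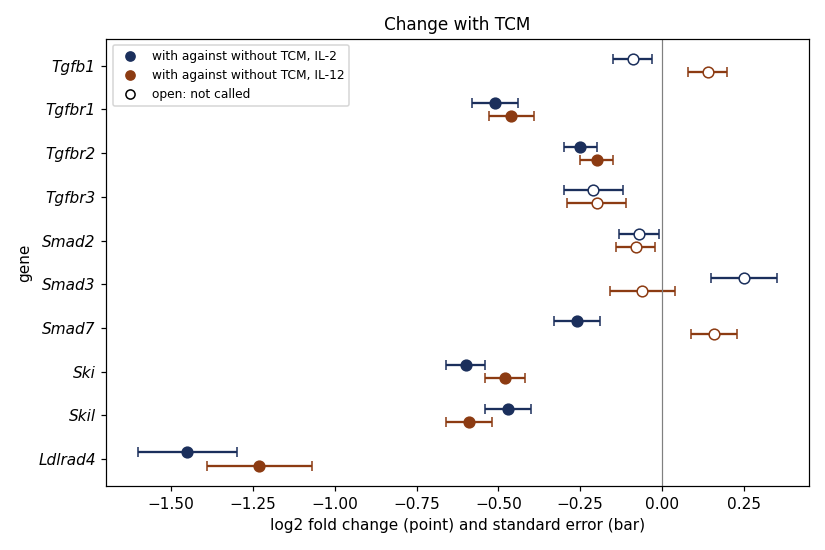
Log2 fold change with against without TCM (horizontal axis) of the 10 genes (vertical axis) within IL-2 and within IL-12, with standard errors as bars and open points for genes not called. The 3 inhibitors Ski, Skil and Ldlrad4 and the receptors Tgfbr1 and Tgfbr2 lie left of 0 with filled points in both, and Smad7 lies on opposite sides, at -0.26 and 0.16.

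Ldlrad4, which keeps receptor-regulated SMADs from the receptor, had the largest fold change of the 10 genes. It was at 18.9, 16.6 and 25.0 CPM in replicates 1 to 3 of IL-2 and at 6.83, 6.46 and 8.89 CPM with TCM. In IL-12 its levels were 15.9, 14.2 and 15.2 CPM, and 6.83, 5.86 and 6.54 CPM with TCM. Every library with TCM was thus below every library without it, whichever the cytokine. The change was 2.72-fold within IL-2 (log2 -1.45, SE 0.15, adjusted p = 0.0001) and 2.35-fold within IL-12 (log2 -1.23, SE 0.16, adjusted p = 0.00013). In bulk RNA, fewer cells that express a gene and less RNA per cell cannot be told apart, here and for all genes below. In GENCODE M21, 52.1% of the exon length of Ldlrad4 lies opposite exons of Fam210a on the other strand, and whether reads were counted by strand is not stated, so that its counts are uncertain. Fam210a itself was at 24.6 ± 0.141 and 27.2 ± 0.988 CPM without and with TCM in IL-2 (adjusted p = 0.28), and at 23.9 ± 0.597 and 22.7 ± 3.07 CPM in IL-12 (adjusted p = 0.56).

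The paralogs Ski and Skil, co-repressors of SMAD target genes, fell together. Ski was at 133, 131 and 138 CPM in IL-2 and at 87.0, 81.0 and 97.6 CPM with TCM. Under IL-12 it was at 94.6, 94.6 and 89.7 CPM, and at 65.7, 67.1 and 66.9 CPM with TCM. The groups did not overlap within either cytokine, and the fold changes were 1.51 within IL-2 (log2 -0.60, SE 0.06, adjusted p = 9.7e-05) and 1.40 within IL-12 (log2 -0.48, SE 0.06, adjusted p = 0.00016). Skil went from 137, 129 and 138 CPM to 99.2, 89.1 and 105 CPM with TCM in IL-2. In IL-12 it went from 106, 100.4 and 101 CPM to 69.2, 63.2 and 72.1 CPM. Skil thus fell 1.38-fold within IL-2 (SE 0.07 on the log2 scale, adjusted p = 0.00077) and 1.5-fold within IL-12 (SE 0.07, adjusted p = 7.0e-05), again with no overlap between groups. Across the 12 libraries, Pearson's r of log2(CPM + 1) between Ski and Skil was 0.98, a description over libraries that share 4 group means.

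Smad7, the inhibitory SMAD that blocks the receptor, fell with TCM within IL-2 and was not called within IL-12. Its levels were 59.0, 53.6 and 52.8 CPM in IL-2 and 46.8, 44.8 and 46.7 CPM with TCM. In IL-12 they were 49.8, 56.0 and 57.5 CPM, and 58.5, 59.8 and 64.2 CPM with TCM. All libraries with TCM were lower than those without in IL-2, and all were higher in IL-12. The fall within IL-2 was 1.2-fold (log2 -0.26, SE 0.07, adjusted p = 0.022), and its adjusted p was 0.13 without replicate 1 of IL-2, 0.061 without replicate 2 of IL-2, and 0.052 and 0.086 without replicates 1 and 2 of IL-2 with 80%TCM. The call was lost in 7 of 23 alternatives, the other 3 being limma on log2(deposited value + 1) and on log2(deposited value + 0.1) (adjusted p = 0.051 and 0.061) and a fit of only those 2 groups (0.084). Within IL-12 the log2 difference of 0.16 (SE 0.07) was not called (adjusted p = 0.086), but was in the 10-library fit (adjusted p = 0.025). The difference between both effects was 0.42 on the log2 scale (SE 0.10, adjusted p = 0.046), and Smad7 was the only one of the 10 genes called in that test, beside 1.58% of all tested genes (1.19% higher, 0.390% lower). Its call was lost in 13 of 21 alternatives, with adjusted p from 0.00094 to 0.18 over all 21, and in every case the difference was above 0.

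Both chains of the signalling receptor fell with TCM. Tgfbr1 was at 45.4, 43.3 and 48.3 CPM in IL-2 and at 33.9, 30.9 and 31.5 CPM with TCM. In IL-12 it was at 26.8, 24.2 and 24.5 CPM, and at 18.7, 17.2 and 19.0 CPM with TCM. With no overlap in either cytokine, Tgfbr1 fell 1.42-fold within IL-2 (log2 -0.51, SE 0.07, adjusted p = 0.00051) and 1.38-fold within IL-12 (log2 -0.46, SE 0.07, adjusted p = 0.00057). Tgfbr2, which binds the ligand, went from 202, 187 and 193 CPM to 167, 169 and 153 CPM in IL-2. In IL-12 it went from 203, 199 and 197 CPM to 182, 171 and 168 CPM. These groups did not overlap either, and the falls were 1.19-fold (SE 0.05, adjusted p = 0.0075) and 1.15-fold (SE 0.05, adjusted p = 0.013). The Tgfbr2 call within IL-2 was lost with only those 2 groups in the fit (adjusted p = 0.079) and without replicate 1 of IL-2 (0.053), and the call within IL-12 without replicate 3 of IL-12 with 80%TCM (0.056). Whether Tgfbr1 fell by more than Tgfbr2 was not tested. Tgfbr3 (betaglycan), a co-receptor that presents the ligand, was at 37.9, 33.3 and 40.6 CPM in IL-2 and at 30.4, 30.5 and 35.6 CPM with TCM. In IL-12 it was at 55.5, 57.6 and 56.2 CPM, and at 52.7, 44.2 and 50.3 CPM with TCM. Neither difference was called (log2 -0.21 and -0.20, SE 0.09 both, adjusted p = 0.13 and 0.093), and both were in the 10-library fit (0.034 and 0.0032). Leaving out replicate 3 of IL-2 with 80%TCM alone was enough for both calls (0.037 and 0.03).

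The ligand and the receptor-regulated SMADs were not called with TCM in the fit over all 12 libraries. Tgfb1 was at 151, 168 and 149 CPM in IL-2 and at 140.4, 143 and 155 CPM with TCM (adjusted p = 0.37). Under IL-12 its levels were 140.1, 129 and 122 CPM, and 144, 141 and 147 CPM with TCM (adjusted p = 0.12). Smad2 lay between 44.9 and 50.9 CPM in the 6 libraries of IL-2 with and without TCM, and between 55.7 and 61.8 CPM in the 6 of IL-12. Its log2 differences with TCM were -0.07 and -0.08 (SE 0.06 both, adjusted p = 0.49 and 0.33). Smad3 was at 38.1, 40.4 and 30.7 CPM in IL-2 and at 47.2, 44.8 and 37.8 CPM with TCM, where replicate 3 was the lowest of each group. Its log2 difference within IL-2 was 0.25 (SE 0.10, adjusted p = 0.11). When same-numbered IL-2 libraries were paired as blocks, Smad3 was called as higher (adjusted p = 0.022), as it was without replicate 3 of IL-2 with 80%TCM (0.026) and with no filter on low counts (0.029). The block changed no other call of the 10 genes. In IL-12 Smad3 was at 62.9, 60.2 and 65.0 CPM, and at 59.5, 57.9 and 62.4 CPM with TCM (log2 -0.06, SE 0.10, adjusted p = 0.66). In the 10-library fit, Tgfb1 and Smad2 were called as lower and Smad3 as higher within IL-2 (adjusted p = 0.025, 0.028 and 0.011), and Tgfb1 as higher within IL-12 (adjusted p = 0.027). In that fit the effect of TCM also differed between the cytokines for Tgfb1 (log2 0.30, adjusted p = 0.0059) and Smad3 (log2 -0.30, adjusted p = 0.014), beside 6.96% of all genes with a difference above 0 and 6.24% below 0 (13.2% in all).

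**Figure D3:**
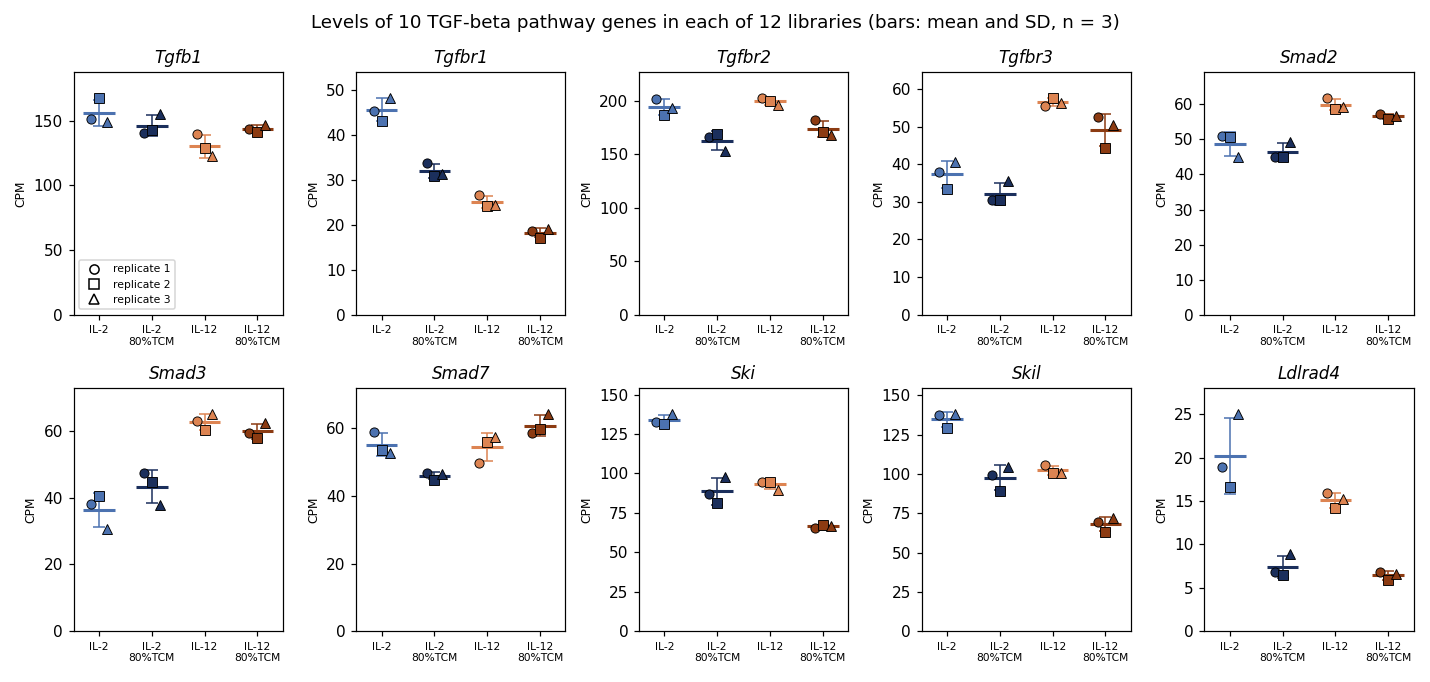
CPM (vertical axis, from 0 in each panel) of each of the 10 genes in the 12 libraries by group (horizontal axis), with a marker shape for each replicate number and the mean and SD of 3 libraries as bars. Tgfbr1 steps down from 45.7 in IL-2 to 18.3 in IL-12 with 80%TCM, and Ldlrad4 is lower in both groups with TCM than in those without.

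The second question was how cells kept with IL-12 differed from those kept with IL-2. IL-12 came with less Tgfbr1, Ski and Skil and with more Tgfbr3, Smad2 and Smad3, without TCM and with it. Without TCM, 3 of the 10 genes were higher and 5 lower in IL-12, beside 22.1% and 23.0% of all tested genes (45.1% in all). With TCM, 4 were higher and 3 lower, beside 19.5% and 19.4% (39.0% in all). The 10-library fit gave the same counts of 3, 5, 4 and 3, beside 26.3%, 26.0%, 23.5% and 24.5% of all genes (52.3% in all without TCM and 48.0% with TCM). Upper-quartile scaling moved the share of all calls that were higher from 49.0% to 36.4% without TCM and from 50.2% to 37.0% with TCM, and left the counts of the 10 genes as they were. These comparisons use the same libraries as those of TCM above, so that a gene low in IL-2 weighs on both. Between them they share no library, and 14.7% of all tested genes were lower in both and 14.7% higher in both. The libraries of IL-12 without TCM did not overlap those of IL-2 for any of the 8 genes called, and 57.3% of all tested genes had no such overlap. With TCM this held for the 7 genes called and for 50.0% of all tested genes.

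Tgfbr1 had the largest of these differences, 1.81-fold lower in IL-12 without TCM (log2 -0.86, SE 0.07, adjusted p = 5.3e-07) and 1.75-fold lower with TCM (log2 -0.81, SE 0.07, adjusted p = 1.3e-06). The highest IL-12 library, at 26.8 CPM, was below the lowest IL-2 library, at 30.9 CPM, with or without TCM. The partner chain Tgfbr2 was not called, with log2 differences of 0.04 and 0.09 (SE 0.05 both, adjusted p = 0.56 and 0.20), and the first was -0.04 with upper-quartile scaling. Tgfbr3 was 1.51-fold higher without TCM (SE 0.09 on the log2 scale, adjusted p = 9.8e-05) and 1.52-fold higher with TCM (SE 0.09, adjusted p = 0.0001). Smad3 was 1.72-fold higher without TCM (SE 0.10, adjusted p = 3.0e-05) and 1.39-fold higher with TCM (SE 0.10, adjusted p = 0.0018). Every IL-12 library, from 57.9 CPM up, was above every IL-2 library, the highest of which was at 47.2 CPM. Smad2, the other receptor-regulated SMAD, was 1.23-fold and 1.22-fold higher (adjusted p = 0.0014 and 0.0024).

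Ski was 1.44-fold lower in IL-12 without TCM (adjusted p = 2.0e-05) and 1.33-fold lower with TCM (adjusted p = 0.00019), and Skil 1.32-fold and 1.43-fold lower (adjusted p = 0.00033 and 4.5e-05). Ldlrad4 was lower in IL-12 without TCM (1.34-fold, adjusted p = 0.032). Replicate 3 of IL-2 was the highest library for this gene, and without it the log2 difference was -0.24 in place of -0.42 (adjusted p = 0.14). The call was also lost without replicates 1, 2 or 3 of IL-12 (0.054, 0.11 and 0.064). It was lost as well with limma on log2(deposited value + 0.1), so in 5 of 22 alternatives. With TCM the Ldlrad4 difference of -0.21 was not called (SE 0.16, adjusted p = 0.34). Tgfb1 was 1.2-fold lower in IL-12 without TCM (adjusted p = 0.0054), and with TCM its levels overlapped (log2 -0.02, SE 0.06, adjusted p = 0.82). Smad7 was not called without TCM (log2 -0.02, adjusted p = 0.83) and was 1.32-fold higher in IL-12 with TCM (adjusted p = 0.00039).

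**Figure D4:**
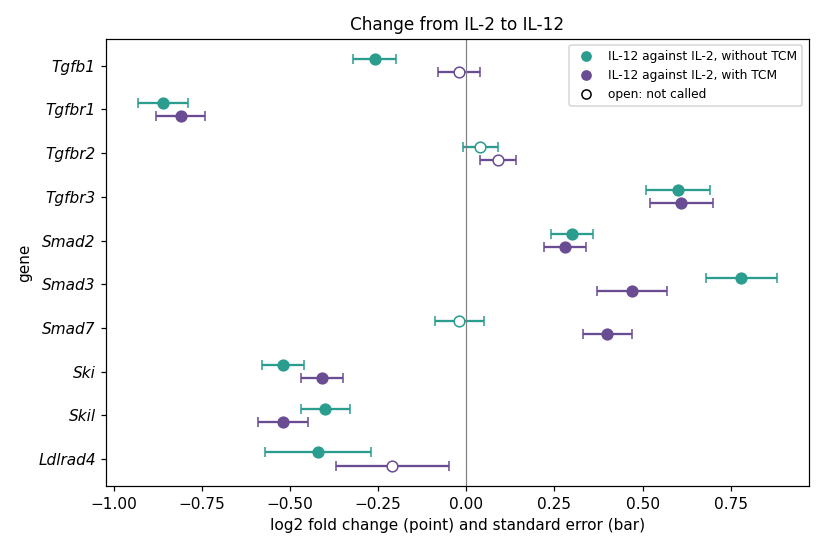
Log2 fold change of IL-12 against IL-2 (horizontal axis) for the 10 genes (vertical axis), without and with TCM, with standard errors as bars and open points for genes not called. Tgfbr1, Ski and Skil lie left of 0 and Tgfbr3, Smad2 and Smad3 right of 0 in both, while Tgfbr2 lies at 0.04 and 0.09 with open points.

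Transcripts of other cell types moved with the same conditions. Of 8 platelet and megakaryocyte markers, 7 were tested, and 7 fell with TCM within IL-2 and 6 within IL-12, beside 7.82% and 14.2% of all tested genes. Within IL-12 the groups did not overlap for 6 lower and 1 higher of the 7, and for 52.1% of all tested genes. For 1 of the 7 the TCM effect differed between the cytokines, with a difference above 0, beside 1.19% of all tested genes. The summed level of the 8 markers was 116 to 138 CPM in IL-2 and 49.5 to 62.2 CPM with TCM, and 63.7 to 75.2 and 29.2 to 35.8 CPM in IL-12 without and with TCM. Platelets are a known store of TGF-beta, and 1 of the 8 markers was at 0 in all libraries of each group. Of 4 CD4 T cell markers the summed level was 17.6 to 23.5 CPM in IL-2 and 19.9 to 33.6 CPM with TCM, and 16.2 to 17.2 and 29.2 to 33.1 CPM in IL-12. Most of that sum was Zbtb7b. Cd4 itself was lower in level and rose 3.15-fold with TCM within IL-2, from 1.21 ± 0.0506 to 3.81 ± 0.934 CPM (adjusted p = 0.00076), and 4.05-fold within IL-12 (adjusted p = 0.00014). Foxp3 was at 1.61 ± 0.269 and 1.15 ± 0.315 CPM in IL-2 without and with TCM (adjusted p = 0.28). The 6 mast cell and basophil markers summed to 35.7 to 60.7 CPM in IL-2, 27.6 to 45.3 CPM with TCM, 15.3 to 18.2 CPM in IL-12 and 12.9 to 14.6 CPM in IL-12 with TCM. For 6 B cell markers the range was 16.7 to 20.4 CPM over the IL-2 groups and 6.3 to 9.67 CPM over the IL-12 groups, and for 5 dendritic cell markers 1.63 to 4.22 and 9.14 to 12.8 CPM. Most of the latter sum was Xcr1, with a mean of 2.14 CPM in IL-2 and 10.3 CPM in IL-12, while Flt3 had means of 0.337 and 0.307 CPM, and Siglech and Clec9a were at or under 0.05404 CPM in every group mean. Of the 5 dendritic cell markers 2 were tested, and 2 were higher and 0 lower in IL-12, without TCM and with it. Xcr1 was thus not the only one that rose, and 22.1% and 19.5% of all tested genes were higher there. The 8 macrophage and monocyte markers summed to 8.42 to 16.1 CPM over the IL-2 groups and 6.05 to 10.2 CPM over the IL-12 groups, with 2 or 3 of them at 0 in all libraries of a group. The 5 red cell markers stayed at or under 2.58 CPM in sum. The 6 stromal markers did so at 3.39 CPM, except in replicate 2 of IL-2 with 80%TCM, where they summed to 15.5 CPM. The part of these transcripts in the levels of the 10 genes was not tested.

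The other genes of the pathway were read from lists, and the called shares of all tested genes to set beside their counts are 14.5% and 29.0% for TCM within IL-2 and IL-12, and 45.1% and 39.0% for IL-12 against IL-2 without and with TCM (24.7%, 46.0%, 52.3% and 48.0% in the 10-library fit). Among 12 genes of ligands and ligand activation, 8 were tested, and 1 rose and 2 fell with TCM within IL-2. Thbs1, a matrix protein that can release TGF-beta from its latent form and is abundant in platelets, fell 2.81-fold there (adjusted p = 5.9e-05) and 3.10-fold within IL-12 (adjusted p = 1.9e-05). Ltbp1, which tethers latent TGF-beta to the matrix, fell from 6.09 ± 0.887 to 2.01 ± 0.278 CPM within IL-2 and from 2.66 ± 0.847 to 1.10 ± 0.284 CPM within IL-12 (adjusted p = 0.00097 and 0.0038). Lrrc32 (GARP), which displays latent TGF-beta on cells, rose 1.56-fold with TCM in IL-2 (adjusted p = 0.013). Within IL-12, 2 of the 8 rose and 2 fell. IL-12 against IL-2 gave 1 higher and 5 lower both without and with TCM. The one higher was Furin, the protease that cleaves the TGF-beta precursor, at 110, 126 and 113 CPM in IL-2 and 1911, 2048 and 1854 CPM in IL-12 (16.7-fold, adjusted p = 2.5e-13), and 19.8-fold higher with TCM (adjusted p = 1.3e-13). Lrrc32 was 4.58-fold lower in IL-12 without TCM (adjusted p = 3.7e-07) and 9.81-fold lower with TCM (adjusted p = 1.4e-08). Its levels were low, at 4.51 ± 0.29 CPM in IL-2 and 7.02 ± 0.0929 CPM with TCM. In IL-12 they were 1.01 ± 0.216 CPM, and 0.714 ± 0.156 CPM with TCM (16, 14 and 11 counts), so that the second fold rests on few counts. In the 10-library fit, 2 of the 8 rose and 2 fell within IL-2, 3 rose and 2 fell within IL-12, and IL-12 gave 1 higher and 6 lower without TCM, and 1 and 5 with TCM. It added Ltbp3, another latent TGF-beta binding protein gene, as higher with TCM in IL-2 (adjusted p = 1e-05). Ltbp3 was at 2.42, 2.94 and 9.10 CPM in IL-2 and at 6.06, 6.53 and 24.9 CPM with TCM, where replicate 3 was the highest of each group. Tgfb2 had a mean of 0.049 CPM over the 12 libraries and was not tested.

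Of 9 other receptors of the family, 8 were tested. With TCM, 1 rose and 1 fell within IL-2, and 3 rose and 2 fell within IL-12. Eng (endoglin), a co-receptor, rose in both, 1.27-fold (adjusted p = 0.0049) and 1.39-fold (adjusted p = 0.0003). Acvr1b, an activin type I receptor that also acts through SMAD2 and SMAD3, was at 17.6, 17.2 and 17.0 CPM in IL-2 and at 15.4, 15.1 and 15.9 CPM with TCM, while it rose from 15.4, 17.2 and 17.0 to 21.2, 21.2 and 20.5 CPM in IL-12 (adjusted p = 0.0035). The effects differed between the cytokines (log2 0.50, SE 0.10, adjusted p = 0.028). Bmpr1a, a bone morphogenetic protein receptor, was 2.17-fold higher in IL-12 without TCM (adjusted p = 3.9e-05) and 2.28-fold higher with TCM (adjusted p = 3.1e-05). In all, IL-12 against IL-2 gave 2 higher and 2 lower of these 8 without TCM, and 3 higher and 1 lower with TCM. The 10-library fit gave 3 higher and 0 lower with TCM within IL-2, 4 and 2 within IL-12, and 2 and 2, then 4 and 1, for IL-12 against IL-2. Acvr1, the receptor that fell with TCM within IL-2 in the fit of 12 libraries (adjusted p = 0.034), lost its call in that of 10 (0.16).

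Of 10 other SMADs and cofactors, 7 were tested. Smad4, the common partner of SMAD2 and SMAD3, lay between 73.9 and 84.0 CPM in all 12 libraries and was not called in any comparison over them. In the 10-library fit Smad4 was called as higher with TCM within IL-2 (log2 0.16, adjusted p = 0.038) and as lower in IL-12 with TCM (log2 -0.16, adjusted p = 0.0087). With TCM, 1 of the 7 rose within IL-2 and 2 within IL-12, with 0 lower in edgeR and in DESeq2 (1 within IL-2 and 0 within IL-12 at an unadjusted p under 0.05 in edgeR). Smad5, a SMAD of bone morphogenetic protein signals, rose 1.26-fold and 1.29-fold (adjusted p = 0.012 and 0.0036). Ep300, a histone acetylase that SMADs recruit, rose 1.41-fold within IL-12 (adjusted p = 0.00018), was at 164 ± 12.4 and 169 ± 8.74 CPM in IL-2 without and with TCM, and differed in its TCM effect (log2 0.45, SE 0.09, adjusted p = 0.029). IL-12 against IL-2 gave 2 higher and 1 lower in both comparisons. The 10-library fit gave 2 higher and 1 lower within IL-2, 2 and 2 within IL-12, and 2 and 2, then 2 and 4, for IL-12 against IL-2. Among 15 other inhibitors and genes of receptor turnover, all were tested, and 0 rose and 1 fell with TCM within IL-2, while 4 rose and 1 fell within IL-12. Unadjusted, 1 was higher and 2 lower within IL-2, and DESeq2 called those numbers after adjustment. The one that fell in both was Pmepa1, which is induced by TGF-beta and takes SMAD2 and SMAD3 out of the pathway. It was at 26.5, 27.9 and 25.9 CPM in IL-2 and at 11.8, 11.3 and 15.9 CPM with TCM (2.06-fold, adjusted p = 0.00018), and fell 1.55-fold within IL-12 (adjusted p = 0.002). Usp11 and Ppp1r15a rose 1.37-fold and 1.33-fold within IL-12 (adjusted p = 0.00065 and 0.0013). IL-12 against IL-2 gave 4 higher and 4 lower of the 15 without TCM, and 4 higher and 2 lower with TCM, among them the ubiquitin ligase gene Smurf1, 1.32-fold and 1.44-fold higher (adjusted p = 0.00087 and 0.0001). The 10-library fit gave 1 higher and 3 lower with TCM within IL-2, 4 and 5 within IL-12, and 4 and 6, then 5 and 2, for IL-12 against IL-2.

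Targets of the pathway were given by 2 further lists. Beside their counts stand the same called shares of all tested genes, 14.5% and 29.0% with TCM within IL-2 and IL-12. For IL-12 against IL-2 these are 45.1% without TCM and 39.0% with it (24.7%, 46.0%, 52.3% and 48.0% in the 10-library fit). Of 12 genes that TGF-beta is known to induce, 7 were tested, and 0 rose and 2 fell with TCM within IL-2, Itgae and Pmepa1. Within IL-12 0 rose and 3 fell, these 2 and Id3 (1.95-fold, adjusted p = 0.0064). DESeq2 also called 0 as higher, and unadjusted edgeR p-values under 0.05 went to 2 higher genes within IL-2 and 0 within IL-12. Itgae fell 3.62-fold within IL-2 (adjusted p = 2.1e-07) and 4.27-fold within IL-12 (adjusted p = 3.7e-07), and was 10.8-fold lower in IL-12 than in IL-2 without TCM. IL-12 against IL-2 gave 1 higher and 3 lower in both comparisons. The 10-library fit gave 2 higher and 3 lower with TCM within IL-2, 2 and 4 within IL-12, and 2 and 4, then 2 and 3, for IL-12 against IL-2. The 2 that it called as higher with TCM were Klf10 and Junb. Junb, a transcription factor gene, was at 73.8, 81.1 and 89.2 CPM in IL-2 and at 90.8, 91.1 and 167 CPM with TCM. Of 8 genes that TGF-beta is known to repress in CD8+ T cells, 1 rose with TCM within IL-2, the death ligand gene Fasl (1.37-fold, adjusted p = 0.01), and 0 fell in edgeR or DESeq2 (1 lower in each at an unadjusted p under 0.05). Within IL-12 4 rose and 2 fell, Fasl again with 1.58-fold (adjusted p = 0.00031). Levels there also went up for Gzmb, from 475 ± 87.1 to 1072 ± 84.8 CPM with TCM, and for Prf1, from 36.1 ± 1.97 to 101.9 ± 11.5 CPM. Those that fell were the granzyme gene Gzma (1.34-fold, adjusted p = 0.0082) and Klrg1 (1.98-fold, adjusted p = 0.021). Against IL-2, 4 of the 8 were higher and 2 lower in IL-12 without TCM, and 5 and 1 with TCM. The median log2 fold change of these 8 genes with TCM was 0.24 in IL-2 and 0.31 in IL-12, and that of the 7 induced genes was 0.03 and -0.36, beside 0.00 and 0.01 over all tested genes. In the 10-library fit these medians were 0.12 and 0.30, and -0.05 and -0.37. That fit called 2 of the 8 repressed genes as higher and 0 as lower with TCM within IL-2, 5 and 3 within IL-12, and 5 and 2 in IL-12 against IL-2 without TCM as well as with it. It added the perforin gene Prf1 within IL-2 (log2 0.65, adjusted p = 1.8e-05), which was at 16.7, 17.9 and 33.7 CPM in IL-2 and at 25.3, 28.7 and 71.7 CPM with TCM.

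For each of the 10 genes, the 3 genes with the most similar pattern were taken by Pearson's r of log2(CPM + 1) over the 12 libraries, among 8485 genes whose mean reached 10 CPM. This is a description, since the libraries share group means. Itgb1, Plxdc2 and Itgae were most like Tgfbr1 (r = 0.988, 0.987 and 0.986). For Smad3 they were Arhgap26, Btla and Il6st (0.986, 0.984 and 0.983), for Tgfbr2 Chaf1b, Dpy19l1 and Dnmt1 (0.971, 0.966 and 0.965), and for Tgfbr3 Tfip11, Gtf2f1 and Tmod3 (0.975, 0.971 and 0.970). Ski was most like Endod1, Skil and Ncbp3 (0.982, 0.976 and 0.972), and Skil like Slf2, Ski and Golim4 (0.979, 0.976 and 0.975), so that each of these paralogs was among the 3 nearest genes of the other. Ldlrad4 was nearest to Crmp1, Gna12 and D6Wsu163e (0.964, 0.959 and 0.956), and Smad2 to Eloa, Dnajb1 and Stip1 (0.974, 0.972 and 0.968). The nearest genes were less close for Smad7, with Il15ra, Rpl37a and Rbm5 (0.902, 0.900 and 0.890), and for Tgfb1, with Cep57l1, Laptm5 and Pip4p2 (0.845, 0.839 and 0.828). Between members, r was 0.93 for Tgfbr1 with Ski and with Skil, 0.90 for Tgfbr3 with Smad2, and -0.86 for Tgfbr1 with Smad3.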

How the data were processed

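Total RNA libraries of 12 samples, 3 per treatment, were made with a directional NEBNext kit per the labels, whose extraction text speaks of livers of bortezomib-treated mice, although the samples are labelled as CD8+ T cells. Gene counts were deposited by the authors, and STAR 2.7.7a, edgeR and the human build GRCh38 are named in the submitters' processing notes with no role, although the identifiers are those of mouse. A normalized signal per gene was also deposited by the authors, in which all counts of a library were divided by the same constant. Annotation and strand setting are not given in the sources used here.

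Counts were filtered with filterByExpr (minimum count 10, minimum total 15), scaled by TMM and tested with edgeR 4.0.16 (glmQLFit and glmQLFTest), all 12 libraries and 4 groups in a single model. Benjamini-Hochberg adjustment ran over 15897 genes, and the threshold was 0.05. Standard errors of log2 fold changes came from the F statistic. The 5 contrasts were TCM in each cytokine, the cytokines against each other at each TCM state, and how far the TCM effects differed. Symbols came from the name table supplied with the files. The scripts were tested on simulated data. The members, gene lists and the naming rule (all 10 members, up to 4 called genes per list and comparison by smallest p, and the 3 most similar genes) were chosen with earlier results of these data known. Alternatives were DESeq2 1.42.0, limma 3.58.1 on the deposited signal, other scalings and filters, other sets of libraries and replicate blocks. Same-numbered libraries of the IL-2 groups deviated together (r = 0.43, 0.40 and 0.68), so their numbers were taken as pairs, although replicates 1 and 2 correlated as well with each other (0.45 and 0.41). In IL-12 the values were 0.13, 0.01 and 0.02.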

Additional observations from a re-analysis of the deposited data

Results flagged for a closer look

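Smad7 was singled out because the difference of its TCM effects between the cytokines was called. All libraries with TCM were lower in IL-2 and all were higher in IL-12, where the rise was not called (edgeR adjusted p = 0.086). Groups did not overlap for 27.4% and 52.1% of all tested genes in these comparisons. The difference of both effects was 0.42 on the log2 scale (edgeR adjusted p = 0.046, 0.00094 in the 10-library fit, and 0.18 without replicate 3 of IL-12 with 80%TCM). That call was lost in 13 of 21 alternatives. The same test called Acvr1b, with a difference of 0.50 (adjusted p = 0.028), and Ep300, with 0.45 (adjusted p = 0.029), both higher with TCM in IL-12 and not called with TCM in IL-2.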

How the results depend on the processing

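Each result was recomputed under up to 23 alternatives. Of 1100 values of single members, 1024 kept their direction and their side of the threshold, 28 lost a call, 19 gained one and 29 changed sign. All members with a changed sign were not called. Tgfbr1, Ski and Skil kept their calls in both TCM comparisons and both cytokine comparisons under every alternative, and Ldlrad4 in both TCM comparisons.

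Genes called with TCM in IL-2 numbered 2313, and 587 with only the 2 groups compared, 3936 in the 10-library fit, and 1292 to 2938 on leaving out 1 library, with 1292 and 1432 without replicate 1 or 2 of IL-2. Members called were 6, then 4 with only the 2 groups compared, 10 in the 10-library fit and 4 to 8 on leaving out 1 library. With TCM in IL-12, 4617 genes were called, 7133 with only the 2 groups, 7332 in the 10-library fit and 2931 to 5697 on leaving out 1 library, with 2931 without replicate 1 of IL-12 and 3067 without replicate 3 of IL-12 with 80%TCM, and members called were 5, then 8, 8 and 4 to 6. For IL-12 against IL-2 leaving out 1 library gave 5595 to 8153 genes and 7 to 8 members without TCM, and 4910 to 6747 genes and 7 members with TCM. For the difference of effects 251 genes were called, 779 with no filter on low counts, 550 with DESeq2 and 235 with DESeq2 size factors. Limma called 222 on log2(deposited value + 1) and 139 on log2(deposited value + 0.1). The 10-library fit called 2105, and leaving out 1 library 105 to 1164. Members called for this difference were 1, then 0 with DESeq2 size factors (3 at an unadjusted p under 0.05), 0 with limma on either pseudocount (1 unadjusted each), 3 in the 10-library fit and 0 to 1 on leaving out 1 library. The cause of these shifts was not tested.

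A replicate block fitted in the IL-2 groups alone called 3267 genes and 7 members. The block over all libraries called 2722, 4949, 7454, 6542 and 330 genes in the 5 comparisons, and 6, 6, 8, 7 and 1 members. These blocks changed no other member's call than those of Smad3 within IL-2 and, over all libraries, of Tgfbr3 within IL-12 (adjusted p = 0.047).

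Sign changes were small. For IL-12 against IL-2 without TCM, Tgfbr2 was at -0.04 with upper-quartile scaling, and Smad7 at 0.0021 with no filter, 0.0032 and 0.0033 with limma, and 0.04 to 0.05 without replicate 1 of either group. With TCM, Tgfb1 was at 0.01 without replicate 3 of IL-2 with 80%TCM, and at 0.01 in the 10-library fit. For the difference of effects, Tgfbr3 was at -0.0013 with DESeq2 size factors, -0.01 with no filter, -0.0016 with DESeq2, -0.02 with limma on either pseudocount, and -0.06 to 0.07 on leaving out 1 library. In the 10-library fit Tgfbr1 was at -0.02, Tgfbr2 at -0.0008 and Smad2 at 0.08. On leaving out 1 library Tgfbr2 ranged from -0.01 to 0.06 and Smad2 from -0.07 to 0.04.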
